A study of Mus musculus with 6 samples.

Results

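The nuclear-encoded subunits of respiratory complex I were followed through an RNA immunoprecipitation (RIP) of mouse heart. The 36 gene symbols, 36 of the 24421 in the deposited table, are a list of gene names from the Nduf families. The rule that defines the set uses no measured value, but the set was chosen with earlier results of these data known. All 6 libraries came from whole heart of C57BL6/J mice aged 4 weeks, with no genetic change or treatment in the labels. The Cnot3 RIP group (n = 2) is RNA recovered with an antibody against Cnot3, the control IgG RIP group (n = 2) is RNA recovered with a control antibody, and the Input group (n = 2) is RNA of the heart lysate before precipitation. The study's question, as far as the labels give it, is which RNAs Cnot3 antibody recovers over control antibody. Whether replicates of a group are different mice is not in the labels, so every p-value reflects library-to-library spread alone, and that spread could be technical.

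Complex I, NADH:ubiquinone oxidoreductase, oxidises NADH made in the mitochondrial matrix, passes the electrons along a flavin and a chain of iron-sulfur clusters to ubiquinone, and pumps protons across the inner membrane. It is L-shaped, with a matrix arm that holds the redox centres and a membrane arm whose pumping core is encoded by mitochondrial DNA and was not analysed here. The many accessory subunits are encoded in the nucleus, surround this core, and are needed for assembly and stability. Heart muscle is among the tissues richest in the complex. Cnot3 is a subunit of CCR4-NOT, the cytoplasmic complex that shortens poly(A) tails and so starts the decay of many mRNAs. In a RIP, a transcript bound to the protein is expected above its level with control antibody, and the Input shows how much of it the lysate held.

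The libraries held 15713318 to 33479580 reads, of which the ribosomal RNA precursor gene Rn45s took 78.3% and 79.2% in Input and 51.1% to 60.2% in the 4 RIP libraries, which left 3407528 to 12500739 other reads. Levels are given as CPM (read counts scaled to the library total) after TMM scaling, which sets the bulk of genes level between libraries and was taken over the recovered reads. A count of 0 allows up to 3 reads, 0.0899 to 0.277 scaled CPM depending on the library, counting error only. Of the 36 members, 35 passed the filter on low counts and were tested among 13010 genes. Ndufs5, a small intermembrane-space subunit of the membrane arm, was listed at 0 in all 6 libraries, as were the globin genes Hbb-bs, Hbb-bt, Hba-a1 and Hba-a2. The annotated Ndufs5 transcript shares 45.7% of its 36-base words with the processed pseudogene BC002163, which was at 1.77 to 6.37 scaled CPM, and the part of shared sequence in the 0 was not tested. The defining cardiomyocyte genes were abundant in every library, with a sum over Myh6, Tnnt2, Actc1, Tnni3, Ryr2, Pln, Myl2 and Myl3 of 19072.0 to 34864.1 scaled CPM, against 1.56 to 6.1 for the brown fat markers Ucp1 and Cidea.

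Most of these mRNAs are short and have short 3' ends. By the GENCODE M21 annotation (GRCm38), the median transcript of the 35 tested members is 763 bases long, against 3036 for the 12033 protein-coding genes tested, and 23 of 35 members (65.7%) are under 1 kb, against 5.12% of those genes. Their median 3' untranslated region (3' UTR) is 128 bases, against 1003. The pentamer ATTTA is the core of AU-rich elements, through which proteins of the Zfp36 family bring CCR4-NOT to an mRNA. It occurred in the 3' UTR of 12 of 35 members (34.3%) and of 66.5% of all genes. Among 3' UTRs under 300 bases the shares were 6 of 28 members (21.4%) and 21.3% of genes. Sites of 6 members are shown as examples of this core pentamer. Each line gives the mRNA strand 5′ to 3′, written with T, with the pentamer in capitals.
Ndufv2, base 615 of a 3' UTR of 856 bases, gene at chr17:66078638-66101559, minus strand: ctttagctatATTTAtttattttga
Ndufs1, base 100 of 235, gene at chr1:63143596-63176833, minus strand: atgatgtaatATTTAaagttatact
Ndufa8, base 119 of 178, gene at chr2:36036326-36049406, minus strand: aaaaaagttaATTTAtgtgacttgg
Ndufb5, base 160 of 417, gene at chr3:32736990-32751566, plus strand: atctgttgggATTTAcagggtagta
Ndufb11, base 49 of 93, gene at chrX:20615326-20617619, minus strand: gctgcttgttATTTAcctggttcct
Ndufa4, base 175 of 243, gene at chr6:11900292-11907497, minus strand: gcgtgtcactATTTAatgctgaaaa
Ndufv2 holds 6 such pentamers, more than any other member, and the one shown runs into a second 4 bases on. A match is a description of letters and not a binding site. The 12 members with the pentamer had a median log2 fold change of -0.15 in Cnot3 RIP over control IgG RIP, and so did the 23 without it. In Cnot3 RIP over Input the medians were -0.88 with it and -1.04 without it, with median transcripts of 1025 and 704 bases.

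At the other end of these genes, 33 of the 36 members had a promoter of 300 bases (250 before the start and 50 after) in the RefSeq table for GRCm38.p6. The motifs of 3 transcription factors known for respiratory chain genes were searched on both strands, and no motif contains another. The NRF1 motif GCGCANGCG was in 8 of 33 members (24.2%), against 14.8% of the tested genes with a promoter and 7.03% of all genes in the table. The YY1 motif AAGATGG was in 7 of 33 (21.2%), against 8.23% and 7.28%. The GABP motif CGGAAG was in 8 of 33 (24.2%), against 33.5% and 18.8%. A promoter of each of the first and the second kind is shown, the motifs in capitals, on the gene's own strand 5′ to 3′.
Ndufa8 promoter, chr2:36049289-36049588, minus strand, NRF1 motif: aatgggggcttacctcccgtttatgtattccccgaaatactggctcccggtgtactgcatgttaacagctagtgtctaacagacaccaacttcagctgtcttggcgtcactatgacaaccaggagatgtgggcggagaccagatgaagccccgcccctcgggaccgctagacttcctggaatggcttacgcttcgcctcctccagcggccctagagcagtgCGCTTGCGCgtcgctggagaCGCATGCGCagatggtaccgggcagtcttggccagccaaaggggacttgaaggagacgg
Ndufs7 promoter, chr10:80249199-80249498, plus strand, YY1 motif: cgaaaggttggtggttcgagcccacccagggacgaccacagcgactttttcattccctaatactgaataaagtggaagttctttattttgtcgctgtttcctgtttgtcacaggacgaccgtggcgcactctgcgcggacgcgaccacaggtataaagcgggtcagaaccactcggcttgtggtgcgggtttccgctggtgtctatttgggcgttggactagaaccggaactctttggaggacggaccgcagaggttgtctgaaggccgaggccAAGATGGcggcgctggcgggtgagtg
Ndufa8 carries the NRF1 motif at 2 places just before its start, both on the opposite strand. In Ndufs7 the YY1 motif begins at base 25 of the transcribed part. The RIP libraries measure RNA and not the binding of either factor.

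In the lysate, the members spanned a wide range. In such bulk tissue, few cells holding a transcript and little of it per cell cannot be told apart. Per kb of transcript, mean Input levels ran from 0.523 scaled CPM for Ndufab1 to 192 for Ndufa4, with a median of 54.6. Ndufa4, a small membrane subunit first counted with complex I and placed in complex IV by later work, was highest at 169 and 215 scaled CPM per kb in the 2 Input libraries. Ndufb8 and Ndufb9, of the distal membrane arm, followed at 152 and 209 and at 156 and 188. Across the 2 libraries the values of these 3 overlapped, while within each library Ndufa4 was the highest. Ndufb8 was below Ndufb9 in the first library and above it in the second, and the order was not tested. Ndufb10 came next at 118 and 140, below both values of the 3 above it. Its values overlapped those of Ndufv1, the highest core subunit, at 93.1 and 125, though Ndufb10 was higher within each library.

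At the bottom, Ndufab1, the mitochondrial acyl carrier protein, stood alone at 0.478 and 0.569 scaled CPM per kb in Input. Ndufb4 was next at 12 and 10.2, and overlapped Ndufs3 at 13.4 and 11.6, which was higher within each library. Ndufb3 lay above both at 21.3 and 18.5. Ndufab1 shares 12.9% of its 36-base words with other transcripts, the pseudogenes Gm4459 and Ndufab1-ps among them. It has the longest annotated transcript of the 35 members, 3479 bases, 2944 of them 3' UTR and only 471 coding. Its counts are therefore uncertain, and its level per kb depends on the transcript chosen. Before division by length Ndufab1 was also the lowest tested member in Input, at 1.66 and 1.98 scaled CPM. The part of shared sequence and annotation in this low level was not tested. In both RIP groups the bottom 4 were the same genes, and the top 3 were Ndufa4, Ndufv1 and Ndufs1.

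**Figure D1:**
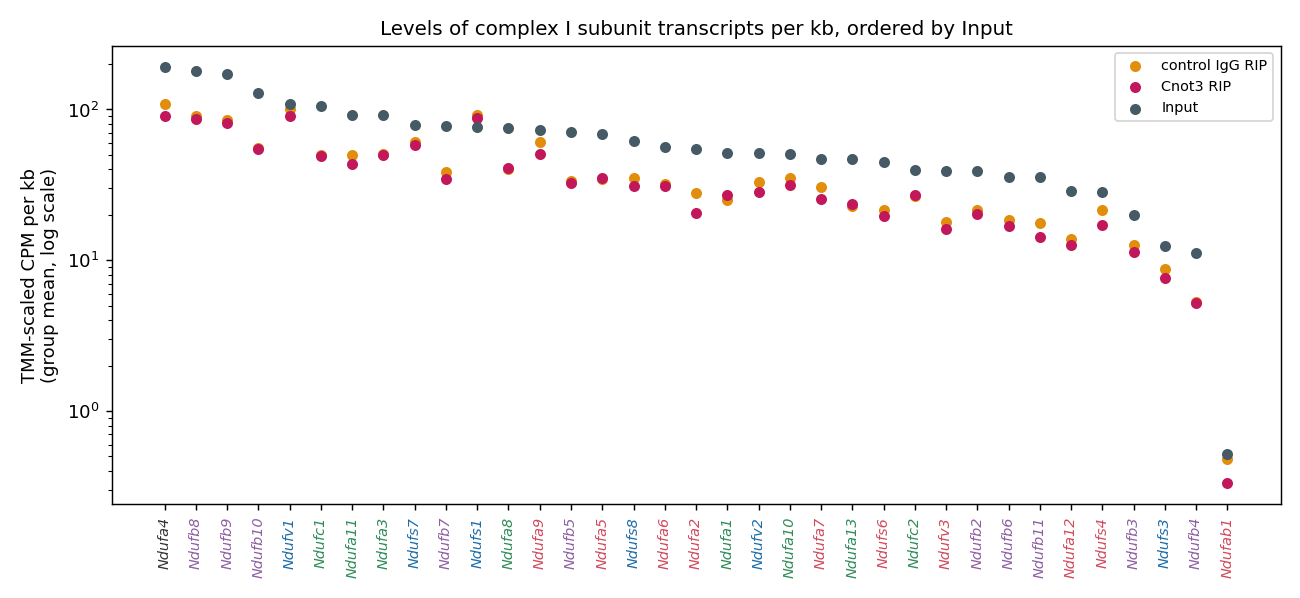
Mean TMM-scaled CPM per kb of transcript (log axis) of the 35 tested members in control IgG RIP, Cnot3 RIP and Input, each point the mean of 2 libraries, ordered from left to right by Input, with gene names coloured by role. Ndufa4 is highest in all 3 groups, with 192 in Input, Ndufab1 is lowest with 0.523, and Ndufs1 is above its Input level in both RIP groups.

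No complex I transcript passed the test between Cnot3 antibody and control antibody. Of 35 members, 0 were called higher and 0 were called lower by limma, at an adjusted p (Benjamini-Hochberg) below 0.05, where 1.54% of all genes tested were higher and 0.277% lower. None had an unadjusted p under 0.05 by limma, where 2246 of all 13010 genes tested did. The lowest adjusted p was 0.49, and edgeR and DESeq2 on recovered reads also called 0. The median log2 fold change of the members was -0.15, beside -0.00 for all genes, and 33 of 35 lay below 0, where 50.3% of all genes did. The widest 95% interval was that of Ndufb4, -0.93 to 0.81, and the narrowest that of Ndufc2, -0.47 to 0.49. These intervals are not adjusted for the 13010 genes tested. With 2 libraries a group, differences within such limits, and some beyond them, could therefore be missed. An exact permutation test of 2 against 2 libraries cannot give a p under 0.333 and was not used. Both Cnot3 RIP libraries lay above both control IgG RIP libraries for 0 of 35 members (24% of all genes) and below them for 4, Ndufa9, Ndufab1, Ndufa10 and Ndufb11 (21.8% of all genes).

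The direction of this median rested on single libraries. Without Cnot3 RIP replicate 2 it was 0.10, without Cnot3 RIP replicate 1 it was -0.46, without control IgG RIP replicate 2 it was -0.02 and without control IgG RIP replicate 1 it was -0.28. With library size as the only scaling it was 0.17 and 31 of 35 members were above 0, where the median of all genes was 0.30, so the members were below the median gene on either scale.

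**Figure D2:**
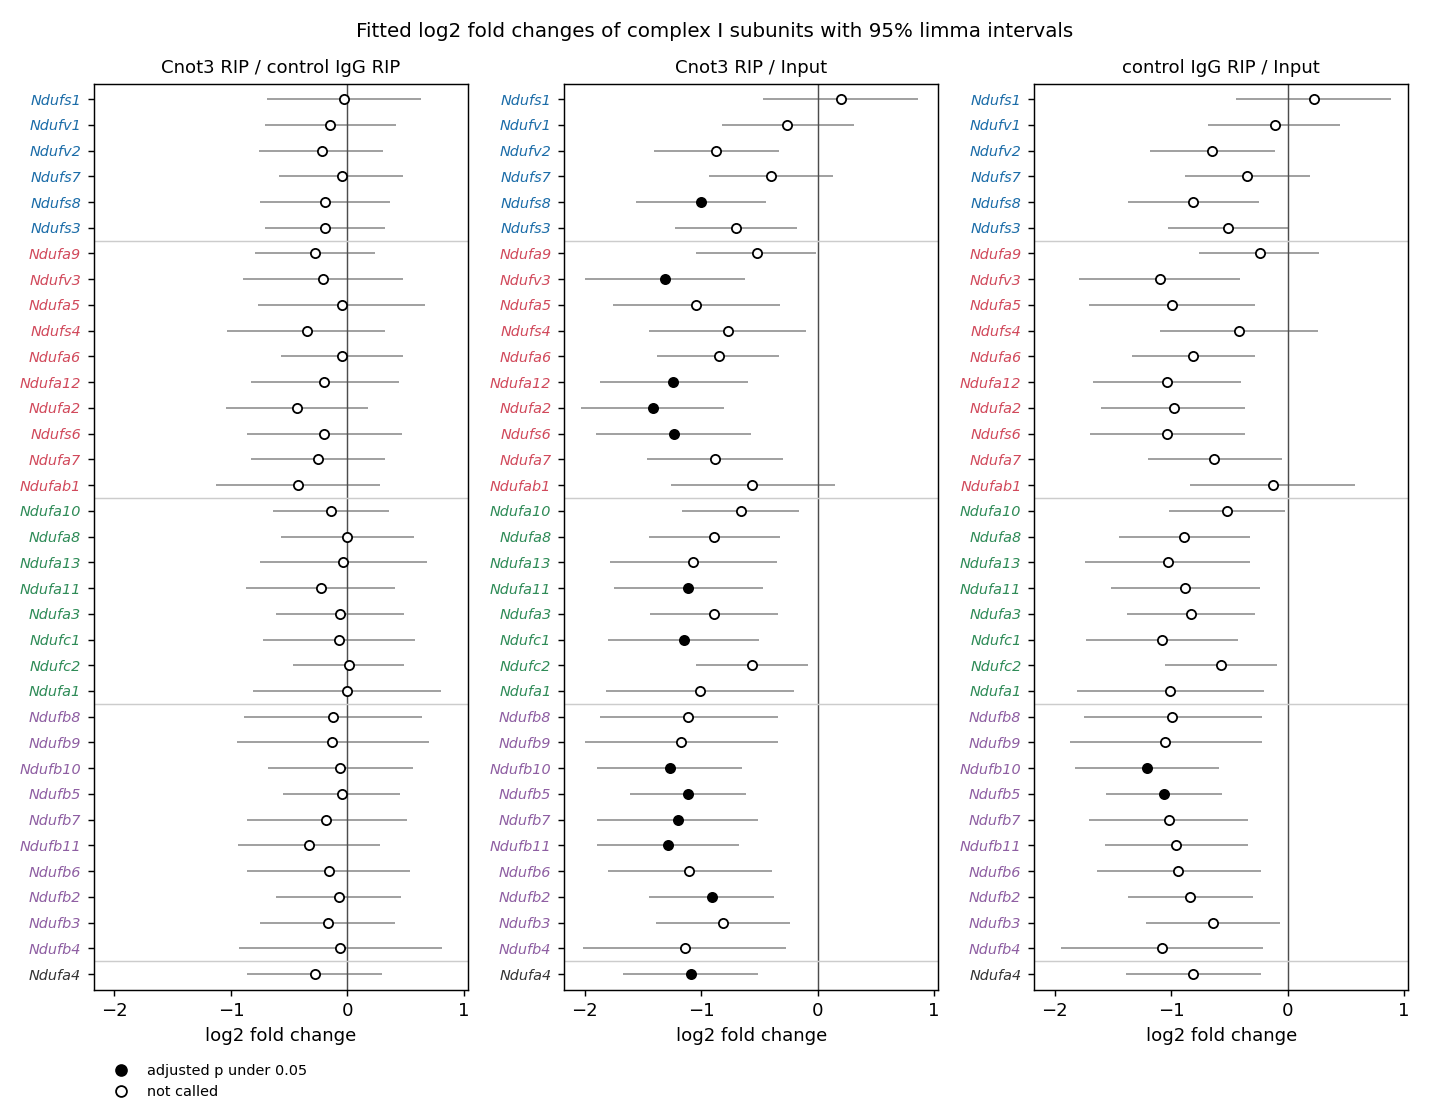
Fitted log2 fold changes (points) with 95% limma intervals (lines) for the 35 tested members, in rows grouped by role, in Cnot3 RIP over control IgG RIP, Cnot3 RIP over Input and control IgG RIP over Input. Filled points have an adjusted p under 0.05: 0 in the first panel, 13 in the second and 2 in the third, all of them below 0.

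Against Input, a part of the same transcripts was lower in the Cnot3 RIP. By limma, 13 of 35 members were lower, where 2.47% of all genes were, and 0 were higher, where 5.86% of all genes were. The median of the members was -1.01, beside 0.06 for all genes, and 34 of 35 were below 0. With control antibody 2 of 35 were lower than in Input, Ndufb5 and Ndufb10 (1.49% of all genes), and 0 were higher (2.58% of all genes), with a median of -0.88 beside 0.01. Both comparisons use the same Input libraries, so their values stand side by side and are not independent. Both Input libraries lay above all 4 RIP libraries for 32 of 35 members, where 20.2% of all genes had that order. The exceptions were Ndufs1, Ndufv1 and Ndufab1.

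These counts of calls moved with single libraries and with the scaling. Without Cnot3 RIP replicate 1, 27 members were lower than in Input; without Cnot3 RIP replicate 2, Input replicate 1 or Input replicate 2, 0 were, and without either control IgG RIP library 5 were, while the members' median stayed between -1.24 and -0.65. Of the calls in control IgG RIP over Input, 0 were left without either control IgG RIP library or either Input library, and 18 members were lower without either Cnot3 RIP library. Scaled by library size alone, with Rn45s counted, the median of all genes shifted to 1.02 for Cnot3 RIP over Input, the members' median was 0.05, 0 members were lower, 3 were higher, and 19 of the 34 values below 0 turned to above 0, so lower here means lower relative to the bulk of genes. As a share of all reads the 35 members took 0.131% and 0.142% in Input, 0.134% and 0.177% with control antibody, and 0.207% and 0.148% with Cnot3 antibody. As a share of the reads outside Rn45s they took 0.606% and 0.682%, 0.336% and 0.435%, and 0.441% and 0.303%, in the same order. In the first measure both Cnot3 RIP sums are above both Input sums, and the control IgG RIP sums overlap Input. In the second both Input sums are above those of the 4 RIP libraries, so the direction of the sum depends on whether Rn45s is counted. Abundant members weigh most in these sums. Ndufs1, an exception above, held 8586 of the 37829 member reads in Cnot3 RIP replicate 2, against 2078 of 20660 and 4410 of 47414 in Input. The first order is therefore not that of every member: scaled by library size alone, 20 of 35 were above 0 for Cnot3 RIP over Input and 15 below.

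**Figure D3:**
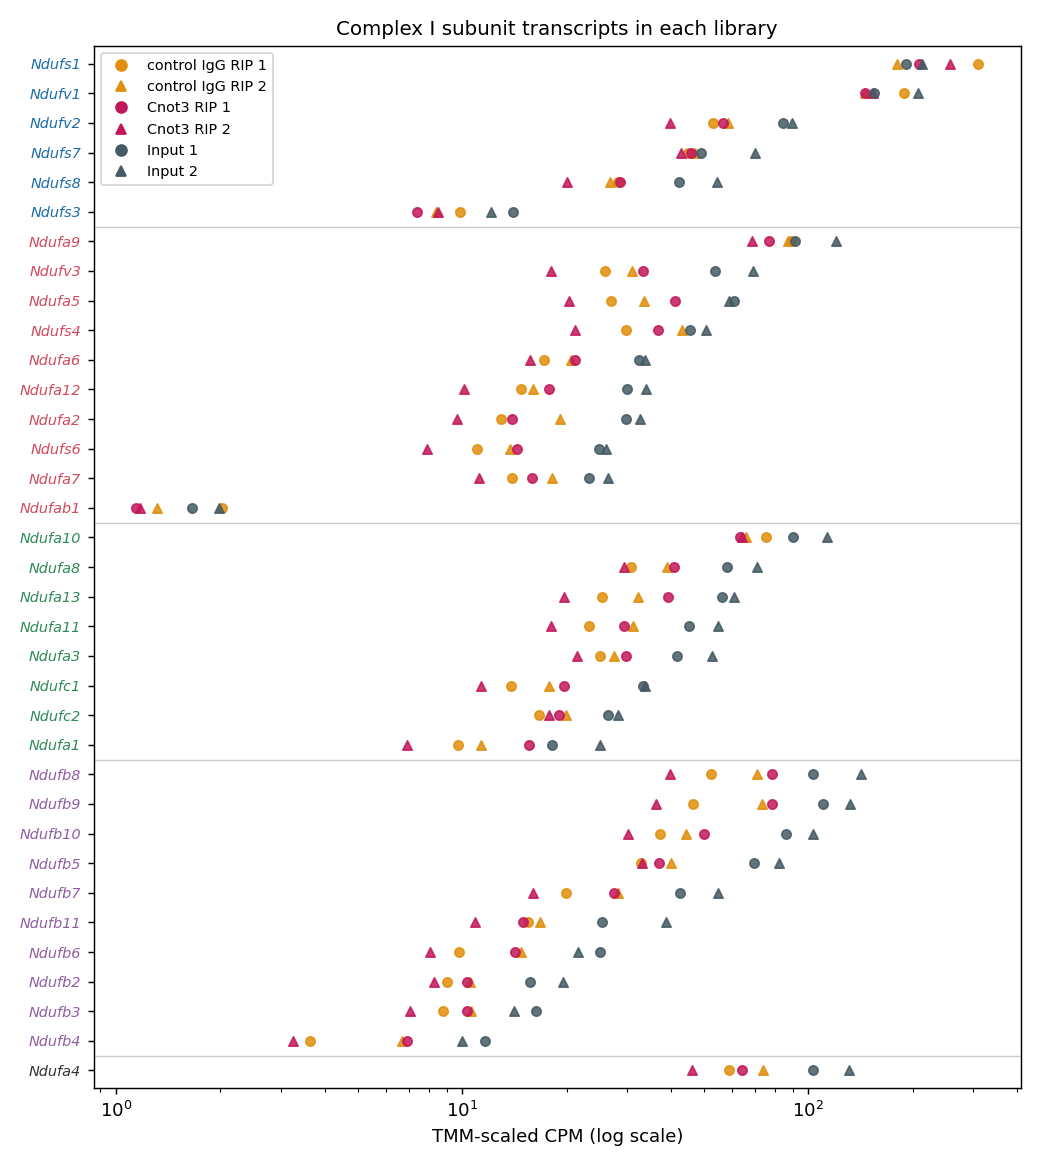
TMM-scaled CPM (log axis) of each of the 35 tested members in the 6 libraries, in rows grouped by role and ordered by mean Input level; colours are groups, circles replicate 1 and triangles replicate 2. Both Input libraries lie to the right of the 4 RIP libraries in 32 of 35 rows, and Cnot3 RIP replicate 2 is the lowest of the 6 in 28.

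Among the 6 core subunits, which carry the flavin, the iron-sulfur clusters and the quinone site, 1 was lower in Cnot3 RIP than in Input, with a median over the 6 of -0.55. Ndufs1, the largest core subunit and the carrier of several iron-sulfur clusters, and Ndufv1, which binds NADH and the flavin, were the most abundant members before correction for length. Ndufs1 had 192 and 213 scaled CPM in the Input libraries, 310 and 180 with control antibody, and 209 and 257 with Cnot3 antibody. The groups overlapped and control IgG RIP replicate 1 was the highest, with a log2 fold change of 0.20 (SE 0.29, adjusted p = 0.715) over Input in Cnot3 RIP and 0.23 (SE 0.29, adjusted p = 0.673) in control IgG RIP. The Input libraries held Ndufv1 at 155 and 208 scaled CPM, those of control antibody at 189 and 146, and those of Cnot3 antibody at 146 and 154. Input replicate 1 lay among the RIP libraries, and the log2 fold change over Input was -0.26 (SE 0.25, adjusted p = 0.546) in Cnot3 RIP. Ndufs1 and Ndufv1 are among the longer members, at 2661 and 1661 bases.

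Ndufs8, which holds iron-sulfur clusters on the way to the quinone, was the core subunit that passed the test. Levels of Ndufs8 were 42.3 and 54.6 scaled CPM in Input, then 28.1 and 26.7 after control IgG and 28.6 and 20.1 after Cnot3 antibody. Both Input libraries were above all 4 RIP libraries, and the Cnot3 RIP level was 0.501 times that in Input (SE 0.25 on the log2 scale, adjusted p = 0.0417). Its partner at the end of the electron chain, Ndufs7, differed less. In Input Ndufs7 was at 48.9 and 70.2 scaled CPM, with control antibody at 44.9 and 47, and with Cnot3 antibody at 45.8 and 42.8. The RIP libraries lay close together and below both Input libraries, with -0.40 (SE 0.24, adjusted p = 0.311) for Cnot3 RIP over Input. Scaled by library size alone, these log2 fold changes over Input became 0.08 for Ndufs8, 0.68 for Ndufs7 and 0.82 for Ndufv1.

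Ndufv2, the iron-sulfur partner of Ndufv1 in the NADH-oxidising module, has 6 of the pentamers shown above in its 3' UTR. Ndufv2 had 84.7 and 89.5 scaled CPM in the Input libraries, 52.9 and 58.4 with control antibody, and 56.7 and 39.9 with Cnot3 antibody. It had -0.87 (SE 0.24, adjusted p = 0.054) for Cnot3 RIP over Input and -0.22 (SE 0.24, adjusted p = 0.737) over control IgG RIP, so it passed neither test. The Input libraries held Ndufs3 at 14 and 12.1 scaled CPM, those of control antibody at 9.86 and 8.38, and those of Cnot3 antibody at 7.41 and 8.48. Ndufs3, which belongs to the quinone-side module, was lowest of the 6 core subunits and had -0.70 (SE 0.23, adjusted p = 0.089) over Input; it shares 44.9% of its 36-base words with other transcripts, pseudogenes among them, so its counts are uncertain.

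The accessory subunits of the matrix arm had 4 of 10 lower in Cnot3 RIP than in Input and a median of -0.96. Ndufa2, a thioredoxin-fold subunit of the NADH module, had the lowest log2 fold change of all members. Levels of Ndufa2 were 29.8 and 32.6 scaled CPM in Input, then 12.9 and 19.1 after control IgG and 13.9 and 9.65 after Cnot3 antibody. Each Input value was above every RIP value, with -1.41 (SE 0.27, adjusted p = 0.0203) for Cnot3 RIP over Input and -0.98 (SE 0.27, adjusted p = 0.0753) for control IgG RIP over Input. Ndufa2 also had the lowest fold change over control IgG RIP, -0.43 (SE 0.27, adjusted p = 0.49), where the groups overlapped. In Input Ndufv3 was at 53.7 and 69.4 scaled CPM, with control antibody at 25.9 and 30.9, and with Cnot3 antibody at 33.3 and 18. Ndufv3, a subunit of the NADH module with tissue-specific isoforms, was lower in Cnot3 RIP than in Input at -1.31 (SE 0.31, adjusted p = 0.0359). Ndufa12 had 30 and 34 scaled CPM in the Input libraries, 14.8 and 16 with control antibody, and 17.8 and 10.1 with Cnot3 antibody. Ndufa12, a late-joining subunit related to the assembly factor Ndufaf2, was also lower, -1.24 (SE 0.28, adjusted p = 0.033), and shares 28.5% of its 36-base words with the pseudogene Gm15920. The other call in this arm was Ndufs6, a zinc-binding subunit, with -1.23 (SE 0.30, adjusted p = 0.0378). Ndufs6 shares 23.3% of its 36-base words with the pseudogene Ndufs6b.

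Other matrix-arm subunits did not pass. The Input libraries held Ndufa5 at 60.9 and 59.1 scaled CPM, those of control antibody at 26.9 and 33.5, and those of Cnot3 antibody at 41.2 and 20.4. Ndufa5, of the quinone-side module, had its lowest value in Cnot3 RIP replicate 2 and had -1.04 (SE 0.32, adjusted p = 0.0737) over Input. Levels of Ndufa6 were 32.5 and 33.8 scaled CPM in Input, then 17.2 and 20.6 after control IgG and 21.2 and 15.7 after Cnot3 antibody. For Ndufa6, a LYR-motif protein that docks the acyl carrier protein, the RIP groups overlapped and both lay below Input, with -0.85 (SE 0.23, adjusted p = 0.0548). In Input Ndufab1 was at 1.66 and 1.98 scaled CPM, with control antibody at 2.02 and 1.31, and with Cnot3 antibody at 1.14 and 1.17. Ndufab1, that acyl carrier protein, was 1 of the 4 members whose Cnot3 RIP libraries both lay below the control IgG RIP libraries, yet control IgG RIP replicate 1 reached the Input level, and the fold change over control IgG RIP was -0.42 (SE 0.31, adjusted p = 0.578). These values rest on 18 to 41 reads per library, and words shared with pseudogenes make the counts uncertain.

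In the proximal membrane arm, next to the quinone site, 2 of the 8 tested members were lower in Cnot3 RIP than in Input, Ndufa11 and Ndufc1, with a median of -0.95. Ndufa11 had 45.3 and 54.8 scaled CPM in the Input libraries, 23.3 and 31.2 with control antibody, and 29.3 and 18 with Cnot3 antibody. Ndufa11, a transmembrane subunit at the contact with complex III in supercomplexes, had -1.11 (SE 0.28, adjusted p = 0.0451), with both Input libraries on top. Ndufc1, the shortest transcript of the set at 315 bases, had -1.15 (SE 0.29, adjusted p = 0.0417). The Input libraries held Ndufa8 at 58.2 and 71.1 scaled CPM, those of control antibody at 30.8 and 39, and those of Cnot3 antibody at 40.9 and 29.4. Ndufa8, a cysteine-rich subunit of the intermembrane space, had a log2 difference between the antibodies of 0.00 (SE 0.25, adjusted p = 0.999), with a 95% interval of -0.57 to 0.57, and -0.89 (SE 0.25, adjusted p = 0.0597) over Input.

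Levels of Ndufc2 were 26.4 and 28.1 scaled CPM in Input, then 16.7 and 19.9 after control IgG and 19 and 17.8 after Cnot3 antibody. The RIP libraries of Ndufc2, a membrane subunit that pairs with Ndufc1, agreed closely, and its fold change over Input was small, -0.56 (SE 0.21, adjusted p = 0.133). In Input Ndufa10 was at 90.4 and 113 scaled CPM, with control antibody at 75.3 and 65.9, and with Cnot3 antibody at 63.6 and 64.1. Ndufa10, a nucleoside-kinase-like subunit on the matrix face, had both Cnot3 RIP libraries just below both control IgG RIP libraries, -0.14 (SE 0.22, adjusted p = 0.842). The long Ndufa10 transcript, 2020 bases, had -0.66 (SE 0.22, adjusted p = 0.0963) over Input. The remaining tested members of this arm, Ndufa1, Ndufa3 and Ndufa13, had fold changes over Input of -1.01, -0.89 and -1.07 with adjusted p of 0.11, 0.0557 and 0.0682.

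The distal membrane arm, far from the redox centres and built around the mitochondrially encoded proton pumps, had 5 of 10 lower in Cnot3 RIP than in Input, a median of -1.13 and a range of -1.28 to -0.81; whether the arms differ was not tested. Ndufb5 had 69.8 and 82.3 scaled CPM in the Input libraries, 32.8 and 40.1 with control antibody, and 37 and 33 with Cnot3 antibody. Ndufb5, a single-span membrane subunit, passed with either antibody, -1.11 (SE 0.22, adjusted p = 0.0235) for Cnot3 RIP and -1.06 (SE 0.22, adjusted p = 0.038) for control IgG RIP. The Input libraries held Ndufb10 at 86.4 and 103 scaled CPM, those of control antibody at 37.2 and 44.2, and those of Cnot3 antibody at 49.9 and 30.2. Ndufb10, a disulfide-bonded subunit of the intermembrane space, also passed with both, -1.27 (SE 0.27, adjusted p = 0.0277) and -1.21 (SE 0.27, adjusted p = 0.0466). In both genes the RIP groups overlapped each other and lay below Input; 20% of the exon bases of Ndufb5 overlap Mrpl47 on the opposite strand, and the strand setting of the counting is not given in the sources used here.

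Levels of Ndufb11 were 25.4 and 38.9 scaled CPM in Input, then 15.5 and 16.8 after control IgG and 15 and 10.9 after Cnot3 antibody. Ndufb11, an X-linked membrane subunit, had -1.28 (SE 0.27, adjusted p = 0.0268) for Cnot3 RIP over Input, and its Cnot3 RIP libraries were both below those of control IgG RIP. In Input Ndufb7 was at 42.7 and 54.9 scaled CPM, with control antibody at 19.9 and 28.2, and with Cnot3 antibody at 27.4 and 16. Ndufb7, a cysteine-rich subunit on the intermembrane-space side, had -1.20 (SE 0.31, adjusted p = 0.0443), and Ndufb2 was the fifth call of this arm. Ndufb2 had 15.7 and 19.6 scaled CPM in the Input libraries, 9 and 10.5 with control antibody, and 10.3 and 8.3 with Cnot3 antibody. For Ndufb2 the log2 fold change was -0.91 (SE 0.24, adjusted p = 0.0489), and 0.15 with library size as the only scaling; 50.3% of its exon bases overlap other genes, so its counts are uncertain.

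The Input libraries held Ndufb8 at 103 and 142 scaled CPM, those of control antibody at 52.2 and 71.1, and those of Cnot3 antibody at 78.6 and 39.8. Ndufb8, often used as the marker protein of assembled complex I, had a wide spread within each RIP group and had -1.11 (SE 0.34, adjusted p = 0.074) over Input. Levels of Ndufb4 were 11.6 and 9.95 scaled CPM in Input, then 3.63 and 6.71 after control IgG and 6.91 and 3.24 after Cnot3 antibody. The low-level Ndufb4, which shares 37.9% of its 36-base words with pseudogenes, had -1.14 (SE 0.39, adjusted p = 0.0976). In Input Ndufa4 was at 103 and 131 scaled CPM, with control antibody at 59 and 74.1, and with Cnot3 antibody at 64.1 and 46.2. Ndufa4, set apart from these arms, was lower in Cnot3 RIP than in Input, -1.09 (SE 0.26, adjusted p = 0.0363), and had -0.81 (SE 0.26, adjusted p = 0.1) in control IgG RIP over Input, with all 4 RIP values below both Input values. Of the other members, Ndufa7, Ndufa9, Ndufs4, Ndufb3, Ndufb6 and Ndufb9 had fold changes over Input between -1.17 and -0.52 in Cnot3 RIP, none past the threshold.

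Libraries of the same group differed in one pattern over most subunits. Control IgG RIP replicate 2 was above replicate 1 for 28 of 35 members (50.6% of all genes), and Cnot3 RIP replicate 1 above replicate 2 for 30 (44.7%). The second control IgG and the first Cnot3 library were both above the other RIP libraries for 27 of 35 members, where 18.2% of all genes had that order. Cnot3 RIP replicate 2 was the lowest library of the 6 for 28 of 35 (19.7% of all genes). The exceptions to the order of 27 were Ndufs1, Ndufs3, Ndufs8, Ndufv1, Ndufa9, Ndufab1, Ndufa10 and Ndufb11, which include 4 of the 6 core subunits.

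Core and distal subunits are set side by side here, with no test of their difference. Relative to the Input mean, the median log2 level of the distal membrane arm was -1.22 and -0.75 with control antibody, against -0.73 and -1.55 with Cnot3 antibody, so the replicates of a group were far apart. The median of the core subunits was -0.39 and -0.45 with control antibody, against -0.49 and -0.53 with Cnot3 antibody, so the 4 libraries lay within a narrow range. Subunits of complexes II to V had medians of -0.98 and -0.62 with control antibody, against -0.63 and -1.25 with Cnot3 antibody. That list also holds Cycs, the gene of cytochrome c. Mitochondrial ribosomal protein genes had -0.67 and -0.56, against -0.55 and -0.74. Both lists thus ordered the RIP libraries as most complex I subunits did. The assembly factors did not, at -0.52 and -0.49, against -0.59 and -0.51. The summed markers of endothelium, fibroblasts, smooth muscle, leukocytes and erythroid cells also had the order of most subunits. The 4 endothelial markers Pecam1, Cdh5, Kdr and Tie1 summed to 213 and 349 scaled CPM with control antibody, 363 and 192 with Cnot3 antibody, and 264 and 214 in Input. The 6 fibroblast markers Col1a1, Col1a2, Col3a1, Dcn, Pdgfra and Lum summed to 521 and 834, 914 and 452, and 713 and 578. The cardiomyocyte sum did not have that order, with 34864.1 and 19278.7, 24030.7 and 25240.3, and 19072.0 and 22792.9. Taken gene by gene, 6 of the 8 cardiomyocyte markers had a log2 fold change over Input below 0 and 2 above, with each antibody. Their medians were -0.54 in Cnot3 RIP, where 46.2% of all genes were below 0, and -0.63 in control IgG RIP, where 49.5% were. All endothelial, fibroblast and cardiomyocyte markers had reads, while of the 5 erythroid markers only Alas2 did. The endothelial and fibroblast sums were both low in replicate 1 of the control and replicate 2 of the Cnot3 antibody, and in contrast to the subunits they did not place Input on top; their part in the order of the subunits was not tested.

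**Figure D4:**
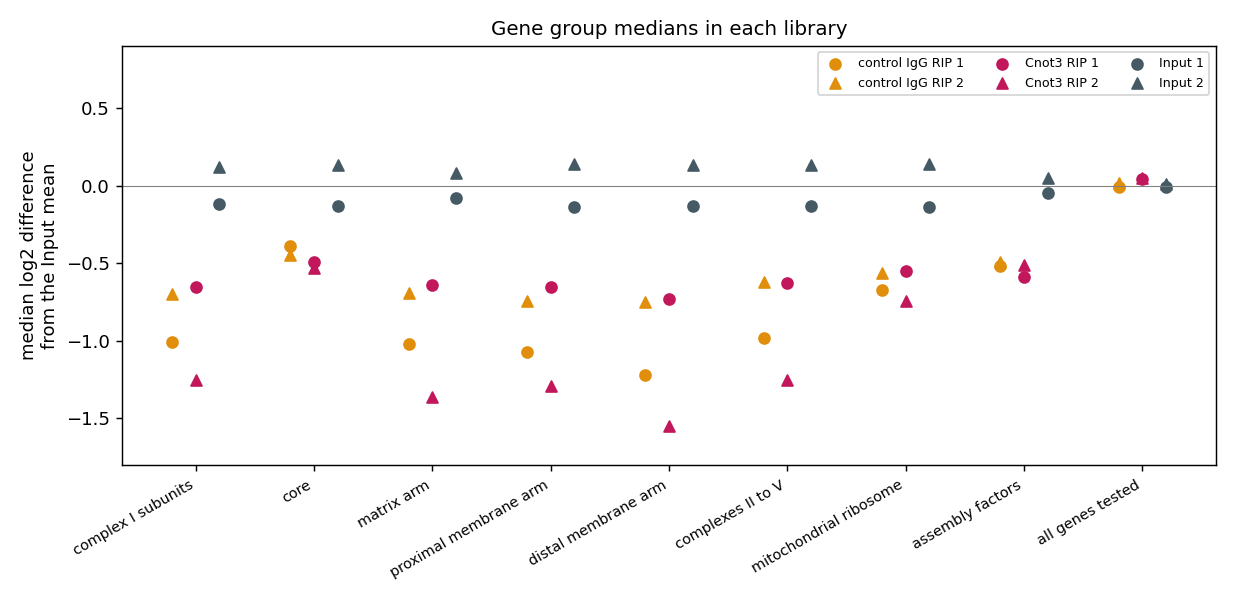
Median log2 difference from the mean of the 2 Input libraries in each library (circles replicate 1, triangles replicate 2) for the complex I subunits, their role groups, other mitochondrial gene lists and all 13010 genes tested. The distal membrane arm runs from -1.55 to -0.73 in the RIP libraries, the core subunits from -0.53 to -0.39, and all genes stay between -0.01 and 0.05.

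Transcript length moved with the difference from Input, in the members and in all genes. Across the 35 members, Spearman's rho of log2 fold change with transcript length was 0.35 for Cnot3 RIP over Input and 0.33 for control IgG RIP over Input, and across 12033 genes 0.49 and 0.46. These are across genes of the same libraries, which are not independent. For Cnot3 RIP over control IgG RIP the values were -0.14 and 0.10. Genes under 1 kb had a median of -0.67 for Cnot3 RIP over Input, and the 23 members of that length had -1.09, with 21 of the 23 below the genes' median. Between 1 and 2 kb the medians were -0.33 for genes and -0.87 for 9 members. Between 2 and 4 kb they were 0.01 for genes and -0.56 for the 3 members Ndufs1, Ndufa10 and Ndufab1. For control IgG RIP over Input the corresponding pairs were -0.66 and -0.94, -0.33 and -0.65, and -0.04 and -0.13. In each of these length ranges the members' median was below that of the genes with both antibodies. Below it lay 21 of 23, 8 of 9 and 2 of 3 members with Cnot3 antibody, and 19, 7 and 2 with control antibody. For genes under 1 kb the quartiles were -0.97 and -0.27 in Cnot3 RIP, and -0.95 and -0.34 in control IgG RIP. Length was not matched within a range, and what part length plays was not tested further.

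**Figure D5:**
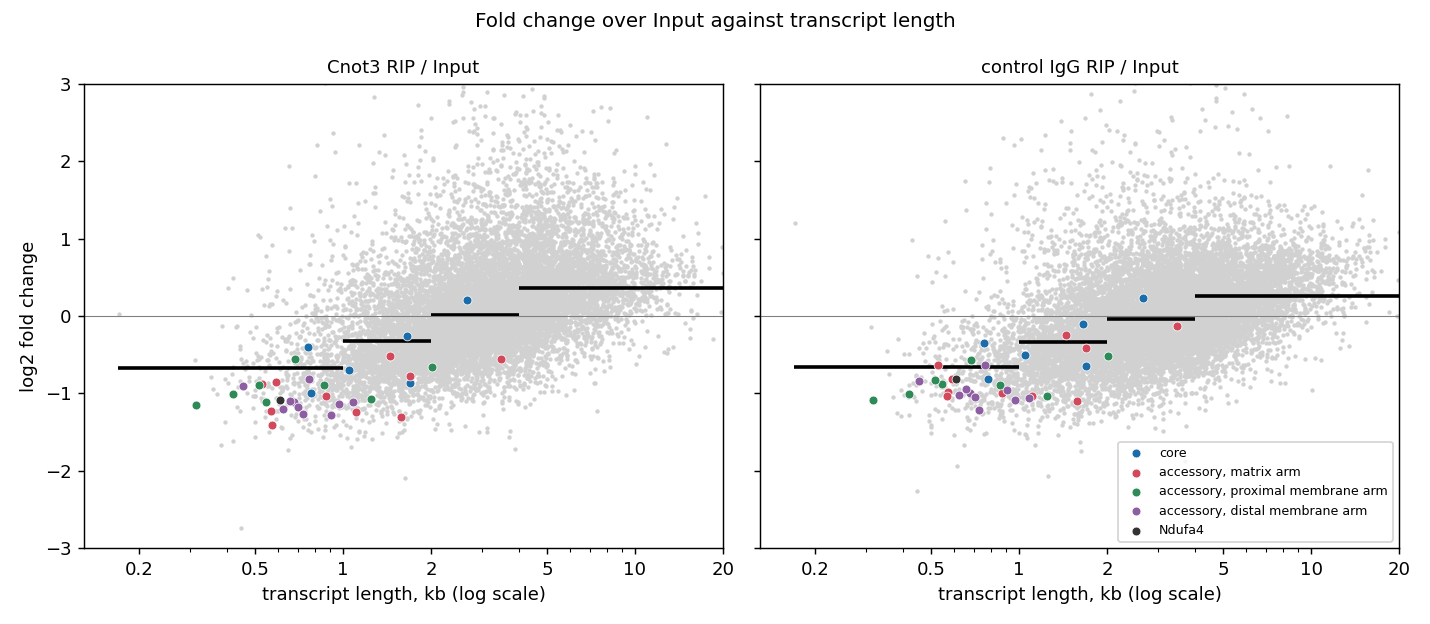
Log2 fold change over Input against transcript length (log axis) for the 35 tested members, coloured by role, and for 12033 protein-coding genes (grey), with black bars at the median of all genes under 1 kb, from 1 to 2 kb, from 2 to 4 kb and above; 32 genes lie outside the axes in each panel. Most members sit at the short end, and 21 of the 23 under 1 kb lie below the bar at -0.67 in the Cnot3 RIP panel.

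The factors that assemble complex I, and the other complexes it works with, gave a context for these values. Of 20 listed assembly factors 16 were tested; their median was -0.54 for Cnot3 RIP over Input and -0.44 for control IgG RIP over Input. Tmem126a, a membrane protein of the assembly machinery, was lower in both, at -1.29 (SE 0.23, adjusted p = 0.0165) and -1.13 (adjusted p = 0.0359). Timmdc1, which helps to build the membrane arm, was lower in Cnot3 RIP at -0.95 (adjusted p = 0.0446). Against control IgG RIP 0 of the 16 were called by limma, with 1 at an unadjusted p under 0.05 and a median of -0.10. Of all 13010 genes, 2246 had an unadjusted p under 0.05 in that comparison by limma.

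Complexes II to IV are the other enzymes of the respiratory chain, of which complex II feeds electrons to ubiquinone beside complex I, and complex V is ATP synthase. Of 40 tested, 14 were lower in Cnot3 RIP than in Input and 5 in control IgG RIP, with medians of -0.93 and -0.82, and 0 were called by limma between the antibodies, with 0 at an unadjusted p under 0.05 and a median of -0.13. Atp5e, a small subunit of ATP synthase, was at 59 and 71.5 scaled CPM in Input, 24 and 29.4 with control antibody, and 22.5 and 19.6 with Cnot3 antibody, with -1.62 (SE 0.23, adjusted p = 0.00972) for Cnot3 RIP over Input. Cycs, which encodes the electron carrier cytochrome c and is counted in this list though not a subunit, followed at -1.50 (SE 0.23, adjusted p = 0.0114). Of 75 tested mitochondrial ribosomal protein genes, 11 and 9 were lower than in Input, with medians of -0.66 and -0.60, and 0 were called between the antibodies by limma, with 1 at an unadjusted p under 0.05. The share of all genes at an unadjusted p under 0.05 between the antibodies was 2246 of 13010 by limma. Whether these lists differ from complex I was not tested.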

How the data were processed

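RNA was sequenced in 6 mouse heart libraries, 2 per group, grouped by their labels. The authors deposited one table of CPM per gene symbol. Per the submitters' processing notes reads were handled with TopHat2 2.1.0, Bowtie2 2.2.5, CASAVA 1.8, edgeR and FastQC on mm10; counter, annotation and strand setting were not given in the sources used here. Each deposited CPM was a whole number of reads within 0.01 read for 100% of values, which gave reads and depth. CPM was rescaled with TMM factors (edgeR 4.0.16), and log2(scaled CPM + 0.25) went into a trended empirical Bayes fit (limma 3.58.1, R 4.3.3) over all 6 libraries with no block, 3 residual and 6.24 prior degrees of freedom. Genes passed filterByExpr at a minimum count of 10, and p-values were Benjamini-Hochberg adjusted over 13010 genes. Fold changes understate those of low genes. Alternatives were other scalings, a pseudocount of 1, no filter, edgeR and DESeq2 1.42.0 on recovered reads, 2 groups only, a replicate block and leaving out each library.

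Members and gene lists were chosen with earlier results of these data known. Values in every library were given for the core subunits, Ndufa4, the accessory members with the 2 largest and 2 smallest fold changes of Cnot3 RIP over control IgG RIP in each arm, the 2 highest and 2 lowest in Input per length, and up to 6 past the threshold in a comparison; Ndufb2, Ndufc1, Ndufs6, Ndufs5 and the members listed with a single fold change were added after their values were seen. Per gene, 1 coding transcript was taken from GENCODE M21, and promoters from RefSeq (GRCm38.p6).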

Additional observations from a re-analysis of the deposited data

How the results depend on the processing

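Between the antibodies, 0 members were called in either direction under every alternative run, including the replicate block and each library left out, and the members' median ranged from -0.46 to 0.10 with 1 library left out. Against Input, the 13 members lower in Cnot3 RIP became 0 with library size only (3 higher), 4 with library size without Rn45s, 2 with no filter on low values, 23 with DESeq2, 7 with only the 2 groups compared, 6 with the replicate block, and 0 to 27 with 1 library left out, where the lone sample of a group is assumed to vary like the others. The 2 lower in control IgG RIP became 0 with library size only (2 higher), 0 with library size without Rn45s, 1 with no filter, 0 with edgeR, 8 with DESeq2, 18 with only the 2 groups compared, 0 with the replicate block, and 0 to 18 with 1 library left out. With library size only, the members' median over Input was 0.05 with Cnot3 antibody and -0.12 with control antibody. With that scaling, 19 of 35 members turned from below to above 0 with Cnot3 antibody and 11 with control antibody; among those past the threshold with either scaling these were Ndufs7 0.68, Ndufs8 0.08, Ndufv1 0.82 and Ndufb2 0.15 in Cnot3 RIP, and Ndufv1 0.65 in control IgG RIP; that scaling counts Rn45s in the total. With 1 library left out the members' median stayed between -1.24 and -0.65 for Cnot3 RIP over Input and between -1.01 and -0.72 for control IgG RIP over Input. Of the 13 calls, 11 stayed below 0 with library size only, and 13 under each other alternative run. The labels do not say what a replicate number shares, and the libraries were not treated as pairs, since the sign of the check differed between groups: over 13010 genes the deviations of same-numbered libraries correlated at -0.317 (control IgG and Cnot3 RIP), -0.327 (control IgG RIP and Input) and 0.339 (Cnot3 RIP and Input). A crossed pairing of the RIP groups, chosen after seeing the data, called 0 members. The cause of these changes was not tested, and 2 libraries a group limit the precision of every value.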
